A study of Mus musculus with 36 samples.

Results

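The transcripts of macrophages lacking both liver X receptors (LXRs) were compared with those of wild-type macrophages after cyclodextrin (CD) and no other agent. The comparison took every array labelled as CD-treated, crystal-free and LXR double knockout (dko, 4 arrays) or wild type (wt, 5 arrays), so 9 of the 36 arrays of the study, and all 14418 genes that could be tested. The cells were bone marrow derived macrophages grown with M-CSF from C57BL/6 mice aged 2 to 5 months. The dko mice lacked both LXRa and LXRb, the wt mice neither, and how the alleles were made is not stated in the labels. All 9 cultures received 10 mM CD for 4 h, and the study's other arrays held cells loaded with cholesterol crystals for 3 h, cells given both agents, and untreated cells. In the labels, wt arrays carry the numbers 1 to 5 and dko arrays 6 to 9, without word of what a number stands for. No label states that replicates came from separate animals or cultures, so p-values reflect only array-to-array spread, part of which may be technical. The study asked whether CD reprograms macrophage transcription through LXR.

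LXRα and LXRβ are nuclear receptors that pair with the retinoid X receptor and bind oxysterols, the oxidised forms of cholesterol. With ligand they switch on genes of cholesterol export and of fatty acid synthesis, and without ligand they can hold some of the same genes down together with corepressor proteins. CD is a ring of sugars that takes up cholesterol in its cavity and can draw it out of cell membranes.

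The 9 arrays had median intensities between 84.5 and 105 before normalization and 15962 to 17457 detected probes each. Macrophage identity genes were high in both genotypes, with 15 of 15 markers measured and a mean log2 intensity of 10.95 to 11.18 in dko and 11.03 to 11.53 in wt arrays. The arrays did not form 1 uniform set within a genotype. The Xist probe, which reads the X-inactivation RNA of female cells, was high on dko arrays 6 and 8 (10.34 and 10.42) and on wt arrays 1, 2 and 3 (11.16, 11.40 and 11.13), and near background on dko arrays 7 and 9 (4.22 and 4.28) and on wt arrays 4 and 5 (4.24 and 4.23). In wt cells this division coincided with the array slide, since wt arrays 1, 2 and 3 shared a slide that held no dko array of this comparison. Slide 3 held dko array 6 and wt array 4, slide 6 held dko array 9 and wt array 5, and slide 4 held dko arrays 7 and 8. Values within these divisions are therefore given beside the results.

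The targeted genes did not check the genotype. The Nr1h3 probe of highest signal, for LXRα, read 10.34, 10.61, 10.57 and 10.58 on dko arrays 6 to 9 and 9.71, 9.77, 10.41, 10.76 and 10.82 on wt arrays 1 to 5, and these overlapping groups differed by 0.23 (SE 0.22, adjusted p = 0.717). For Nr1h2, which encodes LXRβ, the probe of highest signal lay at 9.22 to 9.39 in dko and 8.45 to 9.69 in wt, differing by 0.31 (SE 0.25, adjusted p = 0.647). A second Nr1h3 probe averaged 6.14 in dko and 5.17 in wt, 0.98 higher in dko (SE 0.21, adjusted p = 0.0335 when every probe was tested). A second Nr1h2 probe differed by 0.40 (SE 0.38, adjusted p = 0.728), and one more was detected on 0 of the 36 arrays. The sources used here do not place the probes relative to the deleted exons, so a signal in dko cells neither checks nor contradicts the labels.

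After CD, 53 genes differed between the genotypes (limma, adjusted p under 0.05 by Benjamini-Hochberg over all genes), which is 0.368% of those tested. Of these, 27 were higher in dko cells (0.187% of genes) and 26 lower (0.18%). By size of the difference the higher genes were led by the cholesterol exporter Abcg1, coagulation factor F10, the fatty acid desaturase Scd2, the glutathione transferase Gsta3 and the desaturase Scd1. The lower genes were led by Gpd2, X99384, Abca9 and the endocytic adaptor Dab2. Abcg1, Scd1, Scd2 and Eepd1 are known LXR targets and were more abundant in the cells without LXRs. The number of calls depended on the scaling and on the arrays fitted, with 3 higher and 2 lower genes under median scaling, 0 and 1 with the unnormalized series matrix, and 7 and 0 when the 9 arrays were fitted alone. Differences ran from 0.42 to 2.94 on the log2 scale among the higher genes and from -2.45 to -0.44 among the lower, and 15 higher and 5 lower genes differed by more than 2-fold. In 48 of the 53 genes no dko array overlapped a wt array, against 430 genes or 2.98% of all genes tested. The 5 with overlap were 1700025G04Rik, Ulk2, Rab4a, Elk3 and Mfsd6. Elf3 and 6430530L21RIK were below detection on all 4 dko arrays and at least 1.15-fold and 1.19-fold lower there. Catsperg1 was below detection on all 5 wt arrays and detected on 3 of 4 dko arrays. Its mean over the 4 dko arrays lay 1.15-fold above the lowest detected signal of the wt arrays. Without adjustment 1747 genes (12.1%) had p under 0.05, and the median difference over all genes was -0.005.

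**Figure D1:**
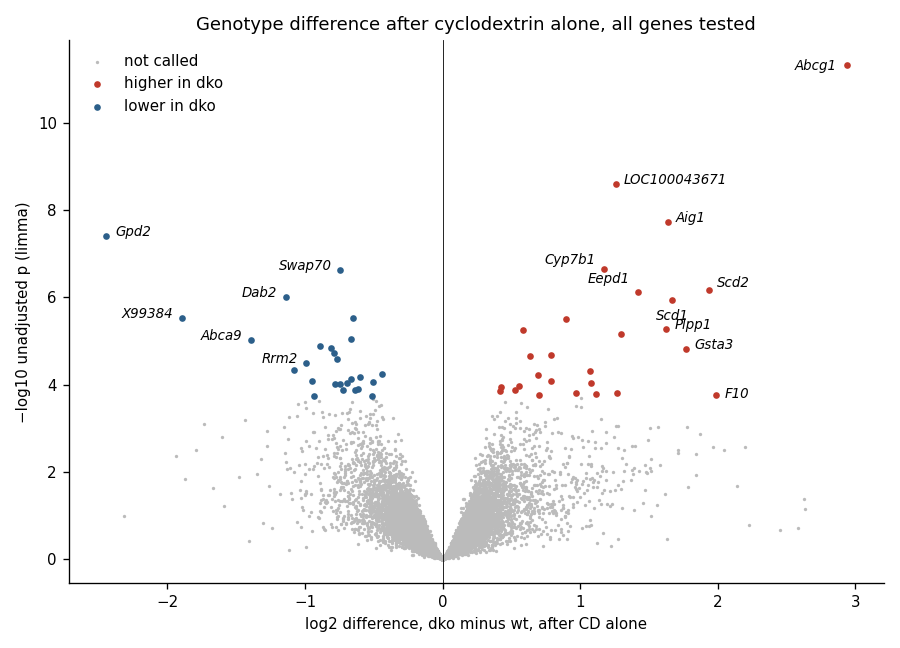
Difference in log2 intensity (dko minus wt) after cyclodextrin alone against −log10 of the unadjusted limma p-value, one point per gene for 14418 genes; red and blue points are the 27 higher and 26 lower genes called at an adjusted p under 0.05. Abcg1 stands alone at 2.94 on the right and Gpd2 at -2.45 on the left.

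The number of calls also moved with single arrays and with the division of the arrays. Leaving out wt array 1 or 2 or dko array 8 left 20, 22 and 20 genes called, leaving out wt array 3 or dko array 6 left 30 and 35, and leaving out wt array 4 or 5 gave 110 and 211. On the arrays with low Xist (dko 7 and 9 against wt 4 and 5), 13 of the 53 genes were called, among 119 genes in all (0.825%), and all 53 kept their direction. Those 13 included Abcg1, Scd1, Scd2, Eepd1, Aig1, Plpp1, Cyp7b1, LOC100043671, Gpd2 and Dab2. On the arrays with high Xist, where the wt slide held no dko array, 51 of the 53 were called, again with all 53 in the same direction, among 2401 genes called in all (16.7%). With slide as a block, 23 of the 53 were called. With replicates 4 to 9 only, which leaves out wt arrays 1 to 3, 11 of the 53 were called, among 61 genes in all. Abcg1, Scd2 and Eepd1 stayed called there, and Scd1, Plpp1 and Dab2 did not. The dko minus wt difference had the same sign in 53 of the 53 genes on slide 3 and in 52 on slide 6, where Ulk2 was at 0.04. In the 48 called genes whose groups do not overlap, any subset of these arrays keeps the sign. Only the 5 with overlap could have changed direction on the high-Xist, low-Xist or same-slide arrays. Of the 30 called genes with the largest differences and no overlap (15 in each direction), 12 were called with each of the 9 arrays left out in turn. They were Abcg1, Scd1, Scd2, Eepd1, Aig1, Plpp1, Cyp7b1, LOC100043671, Gpd2, X99384, Dab2 and Swap70. The 5 genes called under median scaling were Abcg1, Aig1, Gpd2, Cyp7b1 and X99384. Abcg1, Scd1, Scd2, Aig1, Cyp7b1, LOC100043671 and Gsta3 were the 7 called when the 9 arrays were fitted alone, where Gpd2 missed the threshold (adjusted p = 0.0588).

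The LXR target list held 34 genes, of which 28 were measured, 4 were higher in dko cells and 0 were lower. An unadjusted p under 0.05 was reached by 10 of 28, against 12.1% of all genes. The difference was positive in 17 of 28, against 49.0% of all genes. The list's median difference was 0.08, beside -0.005 for all genes. Abcg1, which hands cholesterol to high-density lipoprotein, read 8.88, 7.86, 8.90 and 7.42 on dko arrays 6 to 9 and 5.32, 5.18, 5.93, 5.63 and 4.60 on wt arrays 1 to 5. Every dko array lay above every wt array, and 1 wt array was below detection. The difference of 2.94 (SE 0.28, adjusted p = 6.65e-08) corresponds to 7.66-fold. It was 3.42 (SE 0.26) on the high-Xist arrays and 2.53 (SE 0.28) on the low-Xist arrays, and 2.77 under median scaling (adjusted p = 0.00108).

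Scd2, a stearoyl-CoA desaturase that makes monounsaturated fatty acids, read 8.12, 7.66, 8.29 and 7.83 in dko and 6.25, 5.83, 6.19, 5.84 and 6.09 in wt, with no overlap. Its difference was 1.94 (SE 0.31, adjusted p = 0.00133), or 3.82-fold. Scd1, its close relative, read 8.63, 7.84, 8.63 and 8.24 in dko and 6.60, 6.72, 6.28, 6.99 and 6.75 in wt, a difference of 1.67 (SE 0.28, adjusted p = 0.00164) with no overlap. Eepd1, a protein reported to aid cholesterol efflux from macrophages, read 6.64, 6.50, 6.85 and 6.11 in dko and 5.02, 5.37, 5.46, 5.24 and 4.42 in wt, where the lowest array was below detection. The Eepd1 difference of 1.42 (SE 0.23, adjusted p = 0.00133) was close in size on high-Xist (1.46) and low-Xist arrays (1.48). Under median scaling Scd2, Scd1 and Eepd1 lost their calls, at 1.80 (adjusted p = 0.0884), 1.55 (adjusted p = 0.0906) and 1.27 (adjusted p = 0.591). Eepd1 was also not called when the 9 arrays were fitted alone (adjusted p = 0.106).

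**Figure D2:**
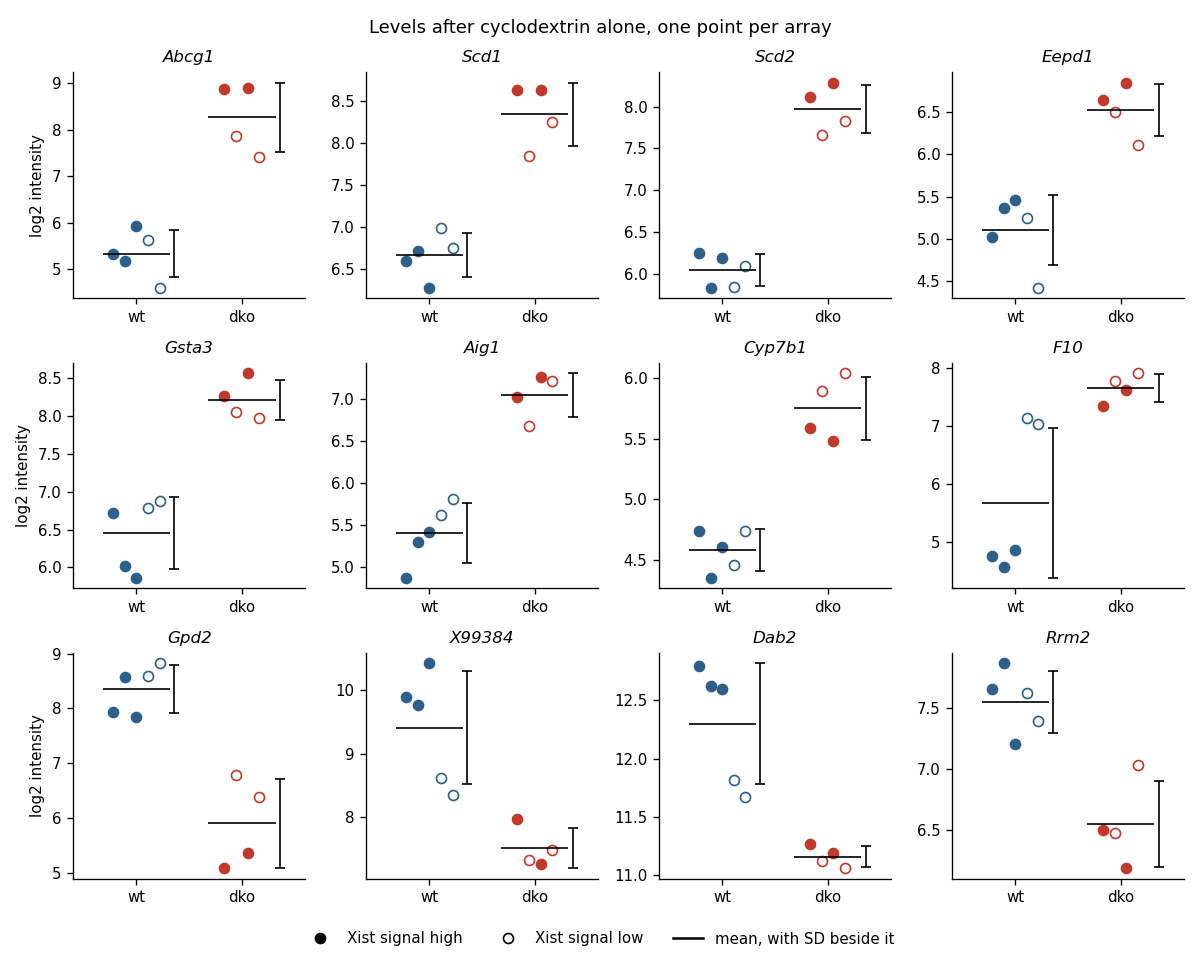
Normalized log2 intensity of 12 genes after cyclodextrin alone, one point per array (wt n = 5, dko n = 4), with group means as lines and the SD beside them; filled points are arrays with high Xist and open points arrays with low Xist. The 12 were taken from the called genes whose groups do not overlap, and for F10, X99384 and Dab2 the wt arrays fall into 2 levels.

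Other members of the list stayed short of a call. Lpcat3, which builds polyunsaturated phospholipids, read 9.06 to 9.25 in dko and 8.19 to 8.74 in wt, without overlap, and differed by 0.61 (SE 0.15, adjusted p = 0.0703). Srebf1, the lipogenic transcription factor SREBP1, read 6.62 to 6.96 in dko and 5.56 to 6.49 in wt, again without overlap, a difference of 0.63 (SE 0.17, adjusted p = 0.106). Both were called on the high-Xist arrays, Lpcat3 at 0.62 (adjusted p = 0.0351) and Srebf1 at 0.78 (adjusted p = 0.0127), and not on the low-Xist arrays, at 0.57 and 0.38. Of the 28 targets, 8 were higher and 2 lower on the high-Xist arrays, where 16.7% of all genes were called. The 4 called over all arrays were the ones called on the low-Xist arrays, where 0.825% of all genes were called. Abca1, which passes cholesterol to apolipoprotein A-I, was below detection on all 5 wt arrays and detected on 3 of 4 dko arrays. Its dko mean lay 1.23-fold above the lowest detected signal of the wt arrays. Dko array 6, at 4.39, lay within the wt range of 4.29 to 4.51, and the difference was not called (adjusted p = 0.144). Apoe, the lipoprotein ligand that macrophages secrete, differed by -0.25 (SE 0.21, adjusted p = 0.677), and the efferocytosis receptor Mertk by 0.19 (SE 0.32, adjusted p = 0.851). Mylip, which marks the LDL receptor for degradation, was detected on 1 dko array and 0 wt arrays. The sterol transfer protein Gramd1b read 8.72 to 9.33 in dko and 8.73 to 9.25 in wt, with means 0.04 apart (SE 0.17, adjusted p = 0.951).

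Of the 4 called targets, Eepd1 has an entry in the promoter table used here. Its promoter window is shown because its genotype difference, like that of Abcg1, was opposite in crystal-loaded cells. The window lies at chr9:25481347-25481646 on the plus strand (RefSeq, GRCm38.p6) and runs from 250 bases before to 50 bases after the annotated start. Capitals mark its 1 match to the NF-kB letters GGGA and CC held 4 bases apart, which lies on the reverse strand.
Eepd1 promoter: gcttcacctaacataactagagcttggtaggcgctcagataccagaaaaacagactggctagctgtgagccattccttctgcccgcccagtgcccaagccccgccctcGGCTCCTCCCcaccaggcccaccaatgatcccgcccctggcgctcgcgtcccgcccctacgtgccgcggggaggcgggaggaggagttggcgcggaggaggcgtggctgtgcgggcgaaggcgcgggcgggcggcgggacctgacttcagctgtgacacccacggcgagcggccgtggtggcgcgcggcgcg
The strict LXR element was AGGTCA repeated after a spacer of 4 bases, on either strand. It was in 0 of the 37 promoters of called genes that the table held and in 4 of all 27025 promoters (0.0148%). It was also in 0 of the 9335 promoters of tested genes, so its absence says nothing about the called genes. The NF-kB letters were in 7 of the 18 promoters of higher genes (38.9%) and 6 of the 19 of lower genes (31.6%), beside 29.9% for the promoters of tested genes and 22.9% for all promoters. GAAA repeated after a spacer of 2 bases, from the element of interferon-stimulated genes, was in 0 of either group and in 3.73% of the promoters of tested genes. These are matches of letters in short windows, and distal sites were not searched.

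Outside the LXR list, Cyp7b1, the oxysterol 7α-hydroxylase, read 5.59, 5.89, 5.48 and 6.04 in dko and 4.35 to 4.74 in wt, where it was detected on 2 of 5 arrays, a difference of 1.17 (SE 0.18, adjusted p = 0.000555). Aig1, a hydrolase of fatty acid esters of hydroxy fatty acids, read 6.68 to 7.26 in dko and 4.87 to 5.81 in wt, a difference of 1.64 (SE 0.22, adjusted p = 9.15e-05). Plpp1, which dephosphorylates lysophosphatidic acid, read 7.74 to 8.45 in dko and 5.50 to 7 in wt, 1.62 higher (SE 0.30, adjusted p = 0.00545). These 3 genes were called in low-Xist arrays too. Papss2, which makes the sulfate donor PAPS, was 0.97 higher (SE 0.23, adjusted p = 0.0472), and the glutathione transferase Gsta3 was 1.77 higher (SE 0.35, adjusted p = 0.0106), with dko arrays at 7.97 to 8.57 and wt arrays at 5.86 to 6.88. Without dko array 8 or wt array 2 Gsta3 was no longer called (adjusted p up to 0.0755), and Papss2 lost its call without any 1 of dko arrays 6 to 9 or wt arrays 1 to 3 (0.88 to 1.03, adjusted p up to 0.224).

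The remaining named higher genes had other roles. LOC100043671, an unnamed locus on chromosome 11 for which the array table gives a hypothetical protein, read 10.39, 9.80, 9.99 and 9.80 in dko and 8.61 to 8.85 in wt, a difference of 1.26 with a small error (SE 0.15, adjusted p = 1.78e-05). Adcy2, an adenylyl cyclase, was 1.30 higher (SE 0.24, adjusted p = 0.00616), and Thg1l, which adds guanosine to histidine tRNA, 1.07 higher (SE 0.23, adjusted p = 0.0254). F10, coagulation factor X, read 7.35 to 7.91 in dko, 4.57 to 4.86 on wt arrays 1 to 3, and 7.13 and 7.03 on wt arrays 4 and 5. The pooled F10 difference of 1.99 (SE 0.47, adjusted p = 0.0492) was 2.75 on high-Xist arrays and 0.76 on low-Xist arrays (SE 0.30), where it was not called. Atf5, a transcription factor of the stress response, showed the same layout, with wt arrays 1 to 3 at 7.19 to 8.09, wt arrays 4 and 5 at 9.08 and 8.81, and dko arrays at 9.26 to 9.65. Its difference was 1.27 (SE 0.30, adjusted p = 0.0472) over all arrays and 0.43 on low-Xist arrays (SE 0.28), without a call. Gm10419 was 1.11 higher (SE 0.26, adjusted p = 0.0476), with its wt arrays divided in the same way, at 6.24 to 6.41 and at 7.26 and 7.66. F10, Atf5 and Gm10419 each lost their call without any 1 of dko arrays 6 to 9 or wt arrays 1 to 3, with differences of 1.71 to 2.35, 1.03 to 1.51 and 0.98 to 1.33. Adcy2 lost its call without dko array 6 (adjusted p = 0.0525), and Thg1l without dko array 8 or 9 or wt array 1, 2 or 3 (0.95 to 1.16).

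Gpd2, the mitochondrial glycerol-3-phosphate dehydrogenase, had the lowest difference. It read 5.08, 6.78, 5.37 and 6.38 on dko arrays 6 to 9 and 7.93, 8.58, 7.84, 8.60 and 8.82 on wt arrays 1 to 5. The groups did not overlap, and the difference of -2.45 (SE 0.34, adjusted p = 0.000139) corresponds to 5.46-fold less in dko. It was -2.89 on high-Xist and -2.12 on low-Xist arrays. A second Gpd2 probe of lower signal averaged 5.35 in dko and 5.06 in wt and did not share this difference (0.29, SE 0.28, adjusted p = 0.738), so the 2 probes disagree.

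For several lower genes the wt arrays again fell into 2 levels. X99384 read 9.89, 9.77 and 10.42 on wt arrays 1 to 3, 8.62 and 8.35 on wt arrays 4 and 5, and 7.27 to 7.97 in dko, which gave -1.89 (SE 0.34, adjusted p = 0.00344). Dab2, a clathrin adaptor for receptors of the LDL receptor family, read 12.79, 12.62 and 12.60 on wt arrays 1 to 3, 11.82 and 11.67 on wt arrays 4 and 5, and 11.06 to 11.27 in dko, which gave -1.14 (SE 0.19, adjusted p = 0.00158). The low-Xist arrays alone gave -0.65 for Dab2 (SE 0.16), which was called, and -1.08 for X99384 (SE 0.33), which was not. Abca9, a lipid transporter of the ABCA family, was at -1.39 (SE 0.27, adjusted p = 0.00769), and at -0.70 on low-Xist arrays (SE 0.29), where it was not called. It also lost its call without dko array 8 (adjusted p = 0.0691). Further Abca9 probes of lower signal gave -0.53 (adjusted p = 0.285) and -0.725 (adjusted p = 0.111). Swap70, an actin-linked signalling protein of leukocytes, read 9.89 to 10.05 in dko and 10.48 to 10.87 in wt, a difference of -0.74 (SE 0.11, adjusted p = 0.000555). On the low-Xist arrays Swap70 was at -0.52 and not called (adjusted p = 0.116). A pair of further Swap70 probes detected on all 9 arrays gave -0.31 (adjusted p = 0.219) and -0.61 (adjusted p = 0.117).

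Rrm2, the small subunit of ribonucleotide reductase, read 6.50, 6.48, 6.19 and 7.03 in dko and 7.65, 7.86, 7.20, 7.62 and 7.39 in wt, a difference of -0.99 (SE 0.21, adjusted p = 0.0175) with no overlap. Clspn, a mediator of the replication checkpoint, was at -0.95 (SE 0.21, adjusted p = 0.0351), Timeless of the fork protection complex at -0.78 (SE 0.18, adjusted p = 0.0362), Uhrf1 of maintenance DNA methylation at -0.76 (SE 0.16, adjusted p = 0.015), and the chromatin protein Psip1 at -0.66 (SE 0.13, adjusted p = 0.00758). On low-Xist arrays the 4 differences of Rrm2, Clspn, Timeless and Uhrf1 were -0.75, -0.46, -0.80 and -0.47, and none of the 4 was called there. Each also lost its call with single arrays left out, Rrm2 without dko array 6 or 8 or wt array 1 or 2 (-1.15 to -0.87), Clspn without those or wt array 3 (-1.04 to -0.83), Timeless without dko array 6, 7 or 9 or wt array 1, 2 or 3 (-0.89 to -0.65), and Uhrf1 without dko array 7 or 8 or wt array 1 or 2 (-0.86 to -0.67). Psip1 lost its call without dko array 8 (adjusted p = 0.0691). The lower genes Ivns1abp, 4930486L24Rik, Zfp869 and Arpp19 lay between -0.89 and -0.69, and each lost its call without wt array 1 or wt array 2, and some also without dko array 6 or 8 or wt array 3. A second Arpp19 probe gave 0.16 (SE 0.26, adjusted p = 0.861). Further Zfp869 probes gave -0.48 (adjusted p = 0.317), -0.33 (adjusted p = 0.618) and 0.28 (adjusted p = 0.55).

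The cell cycle list, which holds Rrm2 but not Clspn, Timeless, Uhrf1 or Psip1, had 19 measured genes, of which 1 was lower (Rrm2) and 0 were higher. An unadjusted p under 0.05 was reached by 12 of 19 genes, against 12.1% of all genes. All 19 had a negative difference, against 50.9% of all genes, and the median was -0.39 against -0.005. On the high-Xist arrays 11 of the 19 were called lower, where 16.7% of all genes were called in either direction. On the low-Xist arrays 0 of the 19 were called, beside 0.825% of all genes. The mean log2 intensity of the list was 7.99, 8.09, 7.86 and 8.21 on dko arrays 6 to 9 and 8.64, 8.57, 8.59, 8.30 and 8.32 on wt arrays 1 to 5, so the ranges did not touch. The helicase subunits Mcm5 and Mcm4 came closest to a call after Rrm2, at -0.66 (adjusted p = 0.0616) and -0.53 (adjusted p = 0.1). The same median was -0.38 in untreated cells.

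The list of fatty acid synthesis and desaturation had 14 measured genes, of which Scd1 and Scd2 were higher and 0 lower, with a median of 0.26. These genes are also in the LXR list. The list's mean level, with Scd1 and Scd2 included, was 8.23 to 8.39 in dko and 7.77 to 7.98 in wt, and the level without them was not tested. Cholesterol synthesis and uptake, the targets of SREBP2, had 23 measured genes and 0 calls by limma. An unadjusted p under 0.05 was reached by 9 of the 23, against 12.1% of all genes. The median was 0.22, with values from -1.87 for Insig1 (adjusted p = 0.271) to 0.76 for the lanosterol synthase Lss (SE 0.23, adjusted p = 0.141). On the high-Xist arrays, where 16.7% of all genes were called, 6 of the 23 were higher and 2 lower, and on the low-Xist arrays 0 were called. Mvk, Pmvk and Sc5d, enzymes of the same route, were at 0.44, 0.50 and 0.52 with adjusted p of 0.182, 0.217 and 0.157. The list of cholesterol storage and transport had 15 measured genes, 0 calls (1 unadjusted) and a median of -0.05. In the stress lists, 1 of 19 genes of the unfolded protein and integrated stress responses (Atf5) and 1 of 16 NRF2 genes (Gsta3) were higher, with medians of 0.02 and 0.26. The lysosome list (23 measured), efferocytosis (16), alternative activation (8) and nuclear receptors (10) held 0 calls, with medians of 0.07, 0.05, -0.36 and -0.01. In these lists 8, 0, 3 and 0 genes had an unadjusted p under 0.05, a threshold met by 12.1% of all genes. On the high-Xist arrays 7 lysosome genes were higher and 2 lower, 1 efferocytosis gene was higher and 1 lower, and 3 alternative activation genes were lower.

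Over all 9 arrays no gene of the 3 inflammatory lists differed by genotype at the threshold. Among 18 cytokines and chemokines 0 were called, with a median of 0.42, among 21 NF-kB response genes 0, with 0.23, and among 24 interferon-stimulated genes 0, with -0.20. An unadjusted p under 0.05 was reached by 2, 2 and 3 of them, shares near the 12.1% of all genes. The mean cytokine level was 7.69, 9.88, 7.91 and 10.00 on dko arrays 6 to 9 and 7.81, 8.05, 7.68, 9.18 and 9.74 on wt arrays 1 to 5. The high arrays were dko 7 and 9 and wt 4 and 5, which are the low-Xist arrays of both genotypes, and the NF-kB list was high on the same 4 arrays (10.09 to 10.62 against 9.12 to 9.27). In 11 of the 18 cytokine genes and 15 of the 21 NF-kB genes every low-Xist array lay above every high-Xist array, as did 6.62% of all genes. Dko arrays 7 and 8 shared a slide and lay on opposite sides of this division, while wt arrays 1 to 3 shared a slide and lay on the same side. The part of the slide was not tested. Within the high-Xist arrays, where 16.7% of all genes were called, 2 cytokines were higher and 3 lower, 1 NF-kB gene was higher and 3 lower, and 3 interferon-stimulated genes were lower. Within the low-Xist arrays 2 cytokines were higher, and 0 genes of the NF-kB and interferon lists were called, beside 0.825% of all genes.

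Single genes of these lists took both layouts. The ubiquitin-editing enzyme Tnfaip3, which restrains NF-kB, read 9.22, 10.88, 9.03 and 11.13 in dko and 8.94, 8.65, 8.22, 10.41 and 10.98 in wt (difference 0.63, SE 0.48, adjusted p = 0.631). Il6 was detected on 2 dko arrays and 1 wt array, and was called on the low-Xist arrays (0.85, adjusted p = 0.0361). Il10, the anti-inflammatory cytokine, was nearest to a call among the cytokines and was low in dko, with 5.36, 6.07, 5.03 and 5.38 against 6.27, 6.57, 6.29, 6.34 and 6.17 in wt, no overlap, and a difference of -0.87 (SE 0.23, adjusted p = 0.0888). On the high-Xist arrays it was called, at -1.19 (adjusted p = 0.00256), and on the low-Xist arrays it was at -0.53 (adjusted p = 0.791). Il1rn, the interleukin-1 receptor antagonist, read 8.07 to 8.58 in dko and 6.23 to 7.91 in wt, also without overlap, a difference of 1.06 (SE 0.31, adjusted p = 0.138), with 1.63 (adjusted p = 3.98e-05) on high-Xist and 0.29 (adjusted p = 0.981) on low-Xist arrays. Further Il1rn probes of lower signal gave 0.32 (adjusted p = 0.612) and 0.57 (adjusted p = 0.126). The chemokine Ccl7 was called on the high-Xist arrays at 1.02 (adjusted p = 0.00225) and was at 0.18 on the low-Xist arrays, and Tnfaip2 likewise at 0.67 (adjusted p = 0.005) and 0.40. Oasl2, an interferon-stimulated gene, was at -0.93 (SE 0.33, adjusted p = 0.22) over all arrays, at -1.39 (adjusted p = 0.00487) on high-Xist and at -0.36 on low-Xist arrays. Irf9, part of the factor that drives interferon-stimulated genes, was at -0.99 on high-Xist arrays (adjusted p = 0.000584) and at 0.10 on low-Xist arrays.

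**Figure D3:**
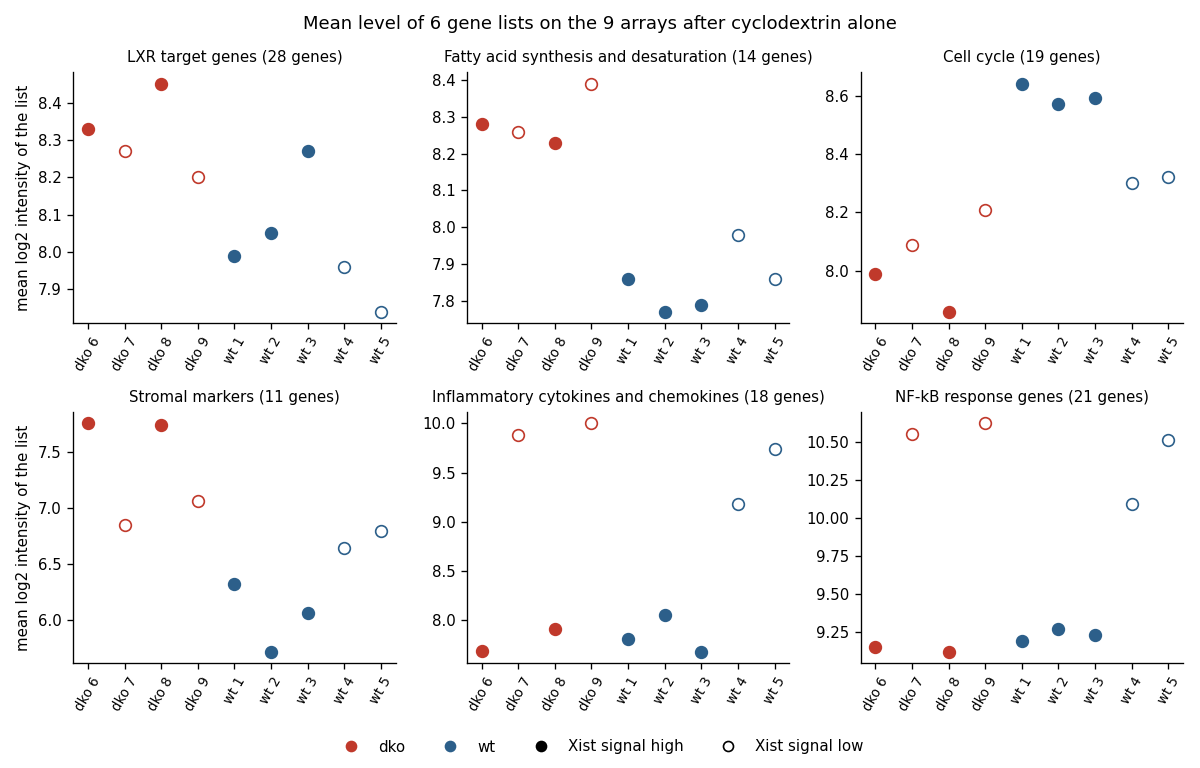
Mean log2 intensity of 6 gene lists on each of the 9 arrays after cyclodextrin alone, with dko arrays in red and wt arrays in blue, filled for high Xist and open for low Xist; the vertical axes do not start at 0. The means of the fatty acid list, which holds the called Scd1 and Scd2, and of the cell cycle list separate by genotype without overlap. The cytokine and NF-kB lists are high on dko arrays 7 and 9 and wt arrays 4 and 5.

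Markers of other cell types were measured beside these genes, and over all 9 arrays 0 were called. All 11 stromal markers were measured, and 11 of 11 had a positive difference, against 49.0% of all genes. Of these markers 0 were called and 8 had an unadjusted p under 0.05, against 12.1% of all genes, and the median was 1.18. Their mean level was 7.76, 6.85, 7.75 and 7.07 on dko arrays 6 to 9 and 6.32, 5.72, 6.06, 6.65 and 6.80 on wt arrays 1 to 5, with the ranges just apart. Acta2 averaged 11.83 in dko and 10.62 in wt, Dcn 10.39 and 9.34, and Col1a1 8.86 and 7.34, while Thy1 and Lum stayed near background in both. On the high-Xist arrays 9 of the 11 were called higher, where 16.7% of all genes were called in either direction. On the low-Xist arrays 0 were called, beside 0.825% of all genes. In untreated cells the stromal median was 1.24. Of 12 neutrophil and granule markers 6 were measured, with a median of 0.65 and mean levels of 5.12 to 6.21 in dko and 4.64 to 4.80 in wt, and S100a9 was detected on 4 of 4 dko arrays and 0 of 5 wt arrays. In bulk RNA fewer cells of a type and less RNA per cell cannot be told apart, and the part of these markers in the differences between the genotypes was not tested. Of 8 T cell markers 2 were measured, and Cd28 was detected on all 9 arrays, at 5.58 in dko and 5.34 in wt. Of 7 B cell markers 4 were measured, with a median of -0.08, and Ighm, the heavy chain of immunoglobulin M, was detected on all 9 arrays at 9.12 ± 1.63 (SD, n = 4) in dko and 8.08 ± 0.33 (n = 5) in wt. The 4 of 8 dendritic cell markers that were measured averaged 4.43 to 4.79, beside a lowest detected signal of 4.60 to 4.72 on these arrays. The erythroid and osteoclast lists had medians of 0.16 and 0.14.

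The other arrays of the study, which share none with this comparison, gave the same genes' genotype differences under other treatments. They are not known to be independent of it, since wt arrays of the same number deviated together across treatments (median correlations of 0.298 to 0.584). In untreated cells 51 of the 53 genes differed in the same direction, as did 70.5% of all genes, and 14 were called in that direction, when 30 genes were called in all (0.208%). The exceptions in direction were St3gal2 and Catsperg1, at -0.09 and -0.12. After crystals plus CD, 45 kept the direction (67.7% of all genes) and 13 were called in it, of 65 genes called (0.451%). After crystals alone, 39 kept the direction (63.0% of all genes) and 6 were called in it, of 54 genes called (0.375%). Aig1, Gpd2 and Adcy2 were called in all 4 conditions. The Aig1 difference was 1.75, 1.55 and 1.67 in untreated, crystal-loaded and doubly treated cells, that of Gpd2 was -2.67, -2.62 and -2.36, and that of Adcy2 was 1.25, 1.31 and 1.39. Abcg1 and Eepd1 were the 2 genes called in the opposite direction, both after crystals alone and after crystals plus CD.

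**Figure D4:**
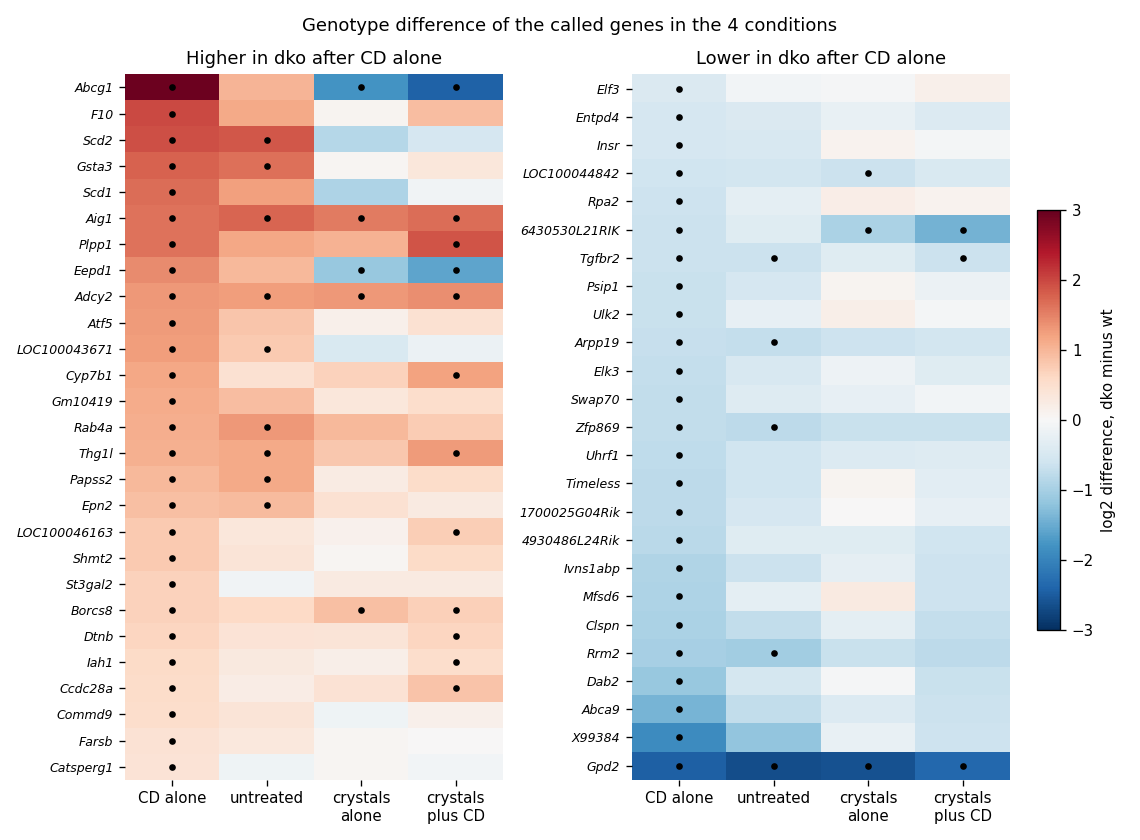
Genotype difference (dko minus wt, log2, colour) of the 27 genes higher and 25 of the 26 genes lower in dko cells after cyclodextrin alone, shown for that condition and for untreated cells, crystals alone and crystals plus CD; black dots mark an adjusted p under 0.05. Aig1, Gpd2 and Adcy2 carry a dot in every column, and Abcg1 and Eepd1 turn from red to blue in the crystal-loaded cells.

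No gene's genotype difference after CD was shown to differ from that in untreated cells. The test of that difference called 0 genes by limma, with 248 at an unadjusted p under 0.05, and its smallest adjusted p was 0.335, for Abcg1. In wt cells Abcg1 averaged 7.75 ± 0.17 (SD, n = 5) untreated and 5.33 ± 0.50 after CD, and in dko cells 8.77 ± 0.20 (n = 4) and 8.27 ± 0.74. The Abcg1 genotype difference was thus 1.01 (SE 0.28, adjusted p = 0.11) untreated and 2.94 after CD, 1.93 apart (SE 0.39). It was called in 3 other fits, at 2.21 without dko array 9, 2.31 on high-Xist arrays and 1.94 with Xist as a covariate. Scd2 differed by 1.86 in untreated cells (SE 0.31, adjusted p = 0.00366) and 1.94 after CD, 0.07 apart (SE 0.44). LOC100043671 differed by 0.79 (adjusted p = 0.0178) in untreated cells and by 1.26 after CD.

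Against crystals alone the genotype difference changed in 11 genes (0.0763%), and 11 of 11 were more positive after CD alone. Abcg1 averaged 10.74 ± 0.37 in wt and 8.95 ± 0.07 in dko cells after crystals alone, so its genotype difference of -1.79 there lay 4.73 below that after CD (SE 0.39, adjusted p = 2.3e-09). Eepd1 averaged 8.62 ± 0.47 in wt and 7.48 ± 0.27 in dko cells after crystals, and its differences were 2.56 apart (SE 0.33, adjusted p = 3.26e-05). Scd1 and Scd2 were at -0.92 and -0.85 after crystals, neither of them called, which lay 2.59 and 2.79 below their differences after CD (adjusted p = 0.000767 and 0.00138). LOC100043671 was 1.72 apart (adjusted p = 3.26e-05) and Gramd1b, with a difference of -1.41 after crystals, 1.45 apart (SE 0.25, adjusted p = 0.00346). The other 5 were Lpcat3 at 1.08 (adjusted p = 0.0318) and, chosen after their values were seen, Slc3a2 at 1.58, Ddit3 at 1.54, Snhg12 at 0.91 and Mafk. Mafk was detected on 1 of the 9 arrays after CD alone and on 3 wt and 0 dko arrays after crystals alone, so no size is given for it. Under median scaling only Abcg1, Scd1 and Scd2 of the 11 were called. The count was 7 without dko array 7 and 29 without wt array 5.

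Against crystals plus CD, where cells of both groups had the same CD exposure, the genotype difference changed in 7 genes (0.0486%), again 7 of 7 more positive after CD alone. Abcg1 averaged 10.46 ± 0.45 in wt and 8.04 ± 0.55 in dko cells after both agents, 5.36 apart (SE 0.39, adjusted p = 7.86e-11). Eepd1 was 3.00 apart (SE 0.33, adjusted p = 1.39e-06), Scd2 2.44 (SE 0.44, adjusted p = 0.0165), LOC100043671 1.43 (adjusted p = 0.000964), Gramd1b 1.26 (adjusted p = 0.0295), Lpcat3 1.10 (adjusted p = 0.0295) and Ap5s1, of an endosomal adaptor complex, 1.80 (SE 0.35, adjusted p = 0.0295). Under median scaling Abcg1 and Eepd1 of the 7 were called. The count was 3 without dko array 8 and 4 without wt array 4. The wt level of Abcg1 was lowest after CD alone among the 4 conditions and near 10.5 to 10.7 with crystals, while the dko level stayed between 8.04 and 8.95.

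**Figure D5:**
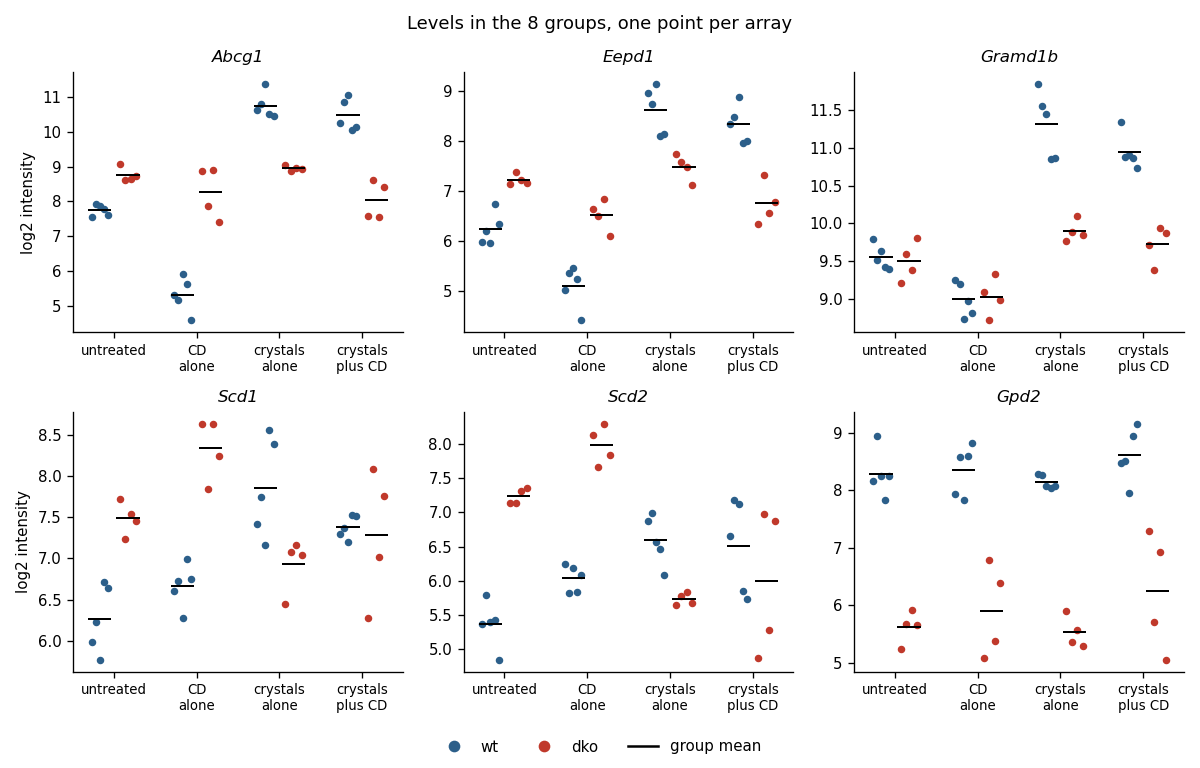
Normalized log2 intensity of 6 genes in the 8 groups of the study, one point per array (wt n = 5, dko n = 4) with group means as lines; the vertical axes do not start at 0. For Abcg1 and Eepd1 the wt means change order with the dko means between crystal-free and crystal-loaded cells, and for Gpd2 every dko mean lies below every wt mean.

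The position of the called genes was set beside the targeted loci, using the gene order of GRCm38.p6. Among the 50 protein-coding genes on either side of Nr1h3 on chromosome 2, 48 were tested and 1 was called, Commd9, where 0.368% of all genes were called. Among those around Nr1h2 on chromosome 7, 51 were tested and 1 was called, Atf5, with 6 genes between it and Nr1h2. Genes without overlap of the genotypes numbered 2 around each locus (4.17% and 3.92%, beside 2.98% of all genes). Gpd2 lies on chromosome 2 as well, with 414 protein-coding genes between it and Nr1h3.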

How the data were processed

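Total RNA was isolated with TRIzol and turned into biotin-labelled cRNA, per the labels' protocols, and hybridised to Illumina bead arrays. The authors deposited one intensity per probe and array with a detection p-value beside it. The deposited intensity carried no normalization between arrays (medians of 83.5 to 128) and no background subtraction that its values show (minimum 69.4). The deposited series matrix held log2 of the same intensity, within 5.57e-05, so its scale and direction are known and it is uncentred, with medians of 6.38 to 7. Partek appears in the submitters' processing notes without a role. Neither the scanner export settings nor a genome build is stated in them.

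Of 45281 probes (1 line without a name was left out), 27735 matched a RefSeq symbol, 8055 a synonym, and 9491 kept the file's name. limma 3.58.1 in R 4.3.3 corrected background and quantile normalized with neqc (offset 16). Probes with detection p under 0.05 on at least 4 arrays were kept (21126), and the probe of highest mean was taken per gene (14418 genes). One mean per group was fitted to all 36 arrays (28 residual and 3.94 prior degrees of freedom). limma's two-sided moderated test gave every adjusted p, from this fit unless another is named. The high-Xist and low-Xist values came from a separate fit with a mean for each group and Xist class. Values of further probes of a gene came from a fit of every probe. All values are normalized log2 intensity, and differences are dko minus wt. A gene below detection in a whole group was given a bound from the lowest detected signal of each array. Precision is limited by the number of arrays. Replicates correlated at 0.964 to 0.995 over genes, and none appeared to be deposited more than once. The fit was tested on simulated data.

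Slides come from the array labels. Same-numbered arrays deviated together in wt cells (median correlations of 0.298 to 0.584) and not in dko cells (-0.461 to 0.069), and dko numbers did not keep one Xist level across groups, so numbers were not treated as pairs. The members, the 30 gene lists and the tests were chosen with earlier results of these data known. Named genes were the 15 largest called differences in each direction without overlap of the groups, the targeted genes, called list members or the members of lowest p in 5 lists, the leading differences between conditions, and a few set genes such as Abca1. Alternatives covered normalization, background, filter, probe rule, slide, Xist, replicate block and each array left out. Listed genes were matched by symbol; promoters of 37 of the 53 called genes were found. Of the called genes, 1 lower gene is counted and not reported here by name.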

Additional observations from a re-analysis of the deposited data

Results flagged for a closer look

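Of 114 groups of values looked at for a sample standing apart, 3 held one, where chance gives about 1 in 20. Zfp869 read 7.30 on dko array 8, with the nearest dko array at 7.88. Nr1h3 read 10.34 on dko array 6, with the nearest at 10.57. Apoe read 13.24 on dko array 8, with the nearest at 12.89.

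The genotype difference after CD alone differed from that after crystals alone, by limma's interaction test, in Abcg1 (4.73), LOC100043671 (1.72), Eepd1 (2.56), Scd1 (2.59), Scd2 (2.79) and Gramd1b (1.45). It differed from that after crystals plus CD in Abcg1 (5.36), LOC100043671 (1.43), Eepd1 (3.00), Scd2 (2.44), Gramd1b (1.26) and Ap5s1 (1.80). Each value is the difference of 2 log2 differences, and their errors and adjusted p-values stand with the comparison above.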

How the results depend on the processing

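All 53 called genes kept their direction under the 3 other scalings, with slide as a block and with Xist as a covariate. They also kept it on high-Xist arrays, on low-Xist arrays and with replicates 4 to 9 only, while within slide 6 Ulk2 did not (0.04). On such subsets of the arrays only the 5 called genes with overlapping groups could have changed direction. With replicates 4 to 9 only, 11 of the 53 stayed called, with a median absolute difference of 0.59 against 0.81. The median difference over all genes stayed within 0.1 of 0. The count of 53 fell to 5 with median scaling (3 higher), 1 with the unnormalized series matrix (0 higher) and 7 with the 9 arrays alone (7 higher). It rose to 91 with slide as a block and 181 with Xist as a covariate, and was 2401 on high-Xist and 119 on low-Xist arrays, a division chosen after seeing the data. Leaving out single arrays gave 20 to 211. The 0 genes that differed from untreated cells became 1 with the Xist covariate and on high-Xist arrays, and 0 to 1 with single arrays left out. The 7 genes that differed from crystals plus CD became 2 (median scaling), 1 (series matrix), 3 (no filter), 2 (arrays of the groups alone), 3 (replicates 4 to 9), 11 (Xist covariate), 109 (high Xist) and 3 to 7 with arrays left out. The 11 that differed from crystals alone became 3, 2, 7 and 4 (median scaling, series matrix, groups alone, replicates 4 to 9), 7 (slide block), 31 (Xist covariate), 439 and 7 (high and low Xist), and 7 to 29 with arrays left out. With the replicate number as a random block the 3 counts were 61, 12 and 25, and with a fixed replicate block, which only differences between conditions allow, 12 and 19; it changed no other count by over 1.5 times. The causes were not tested. The arrays that moved the count against crystals plus CD were dko 8 (3) and wt 4 (4), and against crystals alone dko 7 (7) and wt 5 (29).

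Uncalled genes that changed sign were Nr1h3 (-0.15 slide block, -0.27 replicates 4 to 9, -0.20 low Xist), Ccl7 (-0.43), Tnfaip2 (-0.16), Sod2 (-0.07) and Tnfaip3 (-0.63) on replicates 4 to 9, Irf9 (0.10 low Xist), Gramd1b (-0.07 median scaling, -0.12 series matrix, -0.04 low Xist), Mylip (-0.04 series matrix, -0.12 high Xist), Apoe (0.02 high Xist) and Xist (3.02 slide block, 0.03 random slide, 3.08 replicates 4 to 9). With 1 array left out, Gramd1b ran from -0.06 to 0.15, Mylip from -0.01 to 0.19 and Mertk from -0.08 to 0.47. The bounds of genes below detection limit what Abca1, Mylip and Il6 can show.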
